A study of Caenorhabditis elegans with 12 samples.

Results

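The insulin-like peptide genes of *Caenorhabditis elegans* were followed in whole L4 larvae of 2 *atfs-1* mutant strains and of wild-type N2 worms. Members were all genes in the deposited table whose WormBase name begins with *ins-* or is *daf-28*. There were 39 of them among 46739 genes, and names were found for 43720 of these. Insulin-like peptides are small secreted hormones, made mostly by neurons and the intestine, and are the ligands of the single worm insulin receptor DAF-2. Agonists activate DAF-2 and the kinases below it, which keep the FOXO transcription factor DAF-16 out of the nucleus and favour reproductive growth, while antagonists act against the receptor and favour the dauer larva, a stress-resistant arrested stage. The family is known for its large size and for its many members that share a receptor yet differ in where and when they are made.

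RNA-seq libraries came from 2 experiments, each with 3 libraries of a mutant and 3 of N2. *atfs-1(null)* carries a null allele of *atfs-1*, the gene for a transcription factor of the mitochondrial unfolded protein response, and was compared with N2 of experiment 1. *atfs-1(et18)* carries an amino acid substitution in the mitochondrial targeting sequence of ATFS-1, which is described as activating this response without stress, and was compared with N2 of experiment 2. All strains have the N2 background and, by the sample labels, were grown without treatment on OP50 bacteria at 20 °C to the L4 stage. The study's methods for RNA isolation name other bacteria as food. The study's supplement describes the replicates as biologically independent.

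The libraries held 24090660 to 37050803 counts. *atfs-1* itself had 19 to 27 counts in the *atfs-1(null)* libraries, against 1104 to 1558 in their N2 libraries, in keeping with the label. In *atfs-1(et18)* it averaged 90.5 ± 5.55 CPM (the counts of a gene scaled to a common library size with edgeR's TMM factors), against 66.5 ± 8.02 CPM in N2 (SD, n = 3 each). A library stood apart in each mutant. In *atfs-1(et18)*, counts of replicate 2 differed from those of replicates 1 and 3 with a chi-square per gene of 123 and 114.7, against 10.1 between the other two. In *atfs-1(null)*, replicate 3 differed from the others with values of 140.5 and 147, against 24.9 between the other two. The summed level of 12 oocyte and adult markers was 21613 CPM in *atfs-1(et18)* replicate 2, against 5617 and 3841 CPM in the other *atfs-1(et18)* libraries. It was 31140 CPM in *atfs-1(null)* replicate 3, against 12037 and 12736 CPM in the other *atfs-1(null)* libraries, and N2 of both experiments lay between 707 and 6948 CPM. The highest of these was N2 replicate 2 of experiment 2, beside 1898 and 1613 CPM in replicates 1 and 3. Counts of that N2 library differed from those of replicates 1 and 3 with a chi-square per gene of 37.4 and 31.8, against 15.1 between the other two.

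The family sits mostly in tandem groups. Of the 39 genes, 15 lie on chromosome II, 10 on I, 5 on III, 4 on IV, 3 on V and 2 on X, and 25 of them form 7 clusters whose neighbouring members are at most 20000 bases apart. The largest cluster holds 7 members within 25362 bases of chromosome I, in the order *ins-28*, *ins-29*, *ins-25*, *ins-27*, *ins-24*, *ins-30* and *ins-26*. A second holds *ins-2*, *ins-3*, *ins-4*, *ins-5*, *ins-6* and *ins-20* within 22796 bases of chromosome II (5988526 to 6011321 in WBcel235). The genes are short, with 219 to 794 exon bases in the deposited table and mostly 2 or 3 exons in the Ensembl annotation. Of all members, 3 share exon bases with another gene. *ins-7* shares 50 bases, 9.90% of its exons, with *ZK1251.14* on the opposite strand, *ins-10* shares 7 bases with *vps-39*, and *ins-13* shares 45 bases, 20.3% of its exons, with *acdh-2*. Whether the counting used strand is not given in the sources used here, so reads of *ins-7* and its antisense neighbour cannot be told apart over those bases.

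A large share of the family had few reads at L4. The filter on low counts (edgeR's default, a minimum count of 10) was reached by 23 members in experiment 1 and by 21 of these in experiment 2, where *ins-11* and *ins-23* missed it. The other 16 members were *ins-2*, *ins-8*, *ins-10*, *ins-13* to *ins-16*, *ins-19* to *ins-21*, *ins-25*, *ins-31*, *ins-32*, *ins-34*, *ins-36* and *ins-39*. *ins-8* was the scarcest, with 4 counts in all 12 libraries. *ins-34* was the most counted of them, with 79 counts over the 12 libraries. A member that passes only through a group where it is high is selected toward a difference, so counts among tested members describe those members and not the whole family. Among the members called in *atfs-1(null)*, *ins-3*, *ins-7*, *ins-23*, *ins-24* and *ins-28* reached the filter only through the mutant libraries, and among those called in *atfs-1(et18)*, *ins-5* and *ins-29* reached it only through the N2 libraries. Of the members not called, *ins-22* in *atfs-1(null)* and *ins-28* in *atfs-1(et18)* reached it only through the mutant libraries. *ins-7*, *ins-9* and *ins-26* in *atfs-1(et18)* reached it only through the N2 libraries. For these members the tests and the lack of overlap are given below as a description.

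Among N2 worms, 3 members had the highest means when levels were expressed per exon length as RPKM (CPM divided by the exon length in kilobases). In experiment 1, *ins-27* averaged 30.5 ± 1.28 RPKM, *ins-35*, a peptide gene of the intestine, 21.002 ± 2.38 RPKM and *ins-17*, a candidate antagonist linked to dauer formation, 17.9 ± 1.99 RPKM (SD, n = 3 each). *ins-27* did not overlap *ins-35*, whereas *ins-35* and *ins-17* overlapped. The next member, *daf-28*, a neuronal agonist that prevents dauer arrest, had 7.14 ± 2.26 RPKM and lay below all libraries of *ins-17*. From *daf-28* down, each member overlapped the next in experiment 1.

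In N2 of experiment 2 the same 3 genes led, *ins-35* with 25.2 ± 8.82, *ins-27* with 22.97 ± 1.65 and *ins-17* with 17.5 ± 2.24 RPKM (SD, n = 3 each). *ins-35* overlapped *ins-27* there, and *ins-27* lay above *ins-17* in every library, while *ins-17* overlapped the next member, *ins-37*. *ins-37* with 12.7 ± 3.56, *daf-28* with 11.7 ± 2.25 and *ins-33* with 9.92 ± 1.94 RPKM followed. The median gene tested had 9.15 RPKM in N2 of experiment 1 and 10.2 RPKM in N2 of experiment 2. All but 3 tested members lay below that median in experiment 1, and all but 5 in experiment 2. *ins-3*, *ins-9* and *ins-23* were the lowest tested members of experiment 1, at 0.715, 0.718 and 0.357 RPKM.

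**Figure D1:**
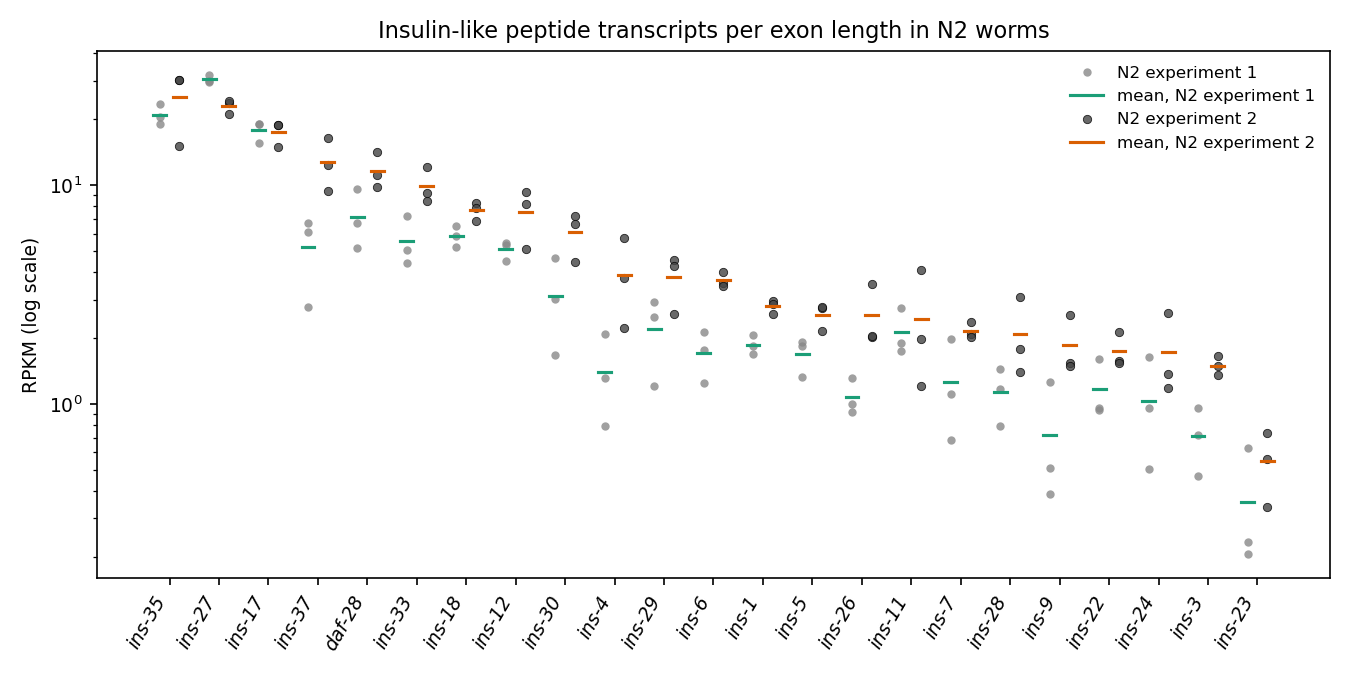
RPKM on a log scale for the 23 members that reached the count filter in either experiment, in the 3 N2 libraries of each experiment (points) with group means (bars). *ins-35*, *ins-27* and *ins-17* lead in both experiments, at means of 17.5 to 30.5 RPKM.

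In *atfs-1(null)* larvae members of the family changed in both directions. *ins-37*, *ins-23*, *ins-7*, *ins-28*, *ins-3*, *ins-24* and *ins-26* rose, by 2.05-fold to 4.77-fold, and *ins-35*, *ins-27*, *ins-33*, *ins-18* and *ins-17* fell, by 1.47-fold to 4.58-fold. Thus 12 of 23 tested members passed edgeR's quasi-likelihood test at an adjusted p of 0.05 (Benjamini-Hochberg over all 15620 genes tested). That is 52.2% of those tested, against 68.3% of all genes tested. The 7 that rose were 30.4% (32.9% of all genes) and the 5 that fell 21.7% (35.4% of all genes). The share of changed members was therefore not above the share of changed genes. Members had a median change of 0.41 on the log2 scale and the genes tested one of -0.04, and 15 of 23 lay above 0.

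*ins-37* had the largest rise (chromosome II, 13835102 to 13835665). Its levels were 15.7, 15.6 and 6.83 CPM in the *atfs-1(null)* libraries, against 3.13, 3.44 and 1.41 CPM in N2. All mutant libraries lay above all N2 libraries, and replicate 3 was the lowest of both groups. This was a log2 fold change of 2.25 ± 0.45 (SE), with an adjusted p of 0.0036 in edgeR. The summed level of 12 sperm markers, a list of genes expressed in spermatogenesis, was 453, 471 and 177 CPM in the same mutant libraries and 109, 134 and 68.6 CPM in N2. Per 1000 CPM of those markers, *ins-37* averaged 35.4 ± 2.82 CPM in *atfs-1(null)* and 24.99 ± 4.12 CPM in N2 (SD, n = 3 each). In each of the 4 groups, both experiments included, the library with the least *ins-37* was also the one with the least of the sperm markers. The library with the most of each was the same in N2 of experiment 1 and *atfs-1(et18)*, but not in *atfs-1(null)* or N2 of experiment 2. This comparison was chosen after the values were seen, and the part of the sperm markers in the result was not tested.

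*ins-7* encodes an agonist of DAF-2 made in the intestine and in neurons, whose transcription is known to be lowered by DAF-16. It lies on chromosome IV (9682011 to 9682928). It had 3.09, 2.27 and 2.13 CPM in *atfs-1(null)*, against 1.00, 0.561 and 0.344 CPM in N2. The lowest mutant library was above the highest N2 library. The log2 fold change was 1.95 ± 0.39 (SE), with an adjusted p of 0.0039 in edgeR. *ins-7* reached the filter only through the mutant libraries, so these values are given as a description.

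*ins-3*, an agonist with a known part in germline proliferation, had 0.833, 1.21 and 1.12 CPM in *atfs-1(null)*, against 0.425, 0.561 and 0.276 CPM in N2. The groups did not overlap, and the log2 fold change was 1.32 ± 0.32 (SE), with an adjusted p of 0.0089 in edgeR. *ins-3* reached the filter only through the mutant libraries, so these values are given as a description. *ins-23* had 0.357, 0.402 and 0.591 CPM, against 0.0608, 0.187 and 0.0689 CPM in N2. These N2 values stand for 2, 5 and 2 counts, and the 12, 14 and 20 counts of the mutant libraries were all above them. None of the N2 libraries was past the filter, so this member was tested only because it was high in the mutant. Its log2 fold change of 2.10 ± 0.49 (SE) is given as a description.

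The chromosome I cluster did not move as a block in *atfs-1(null)*. Of its 6 tested members, *ins-24*, *ins-26* and *ins-28* rose, *ins-27* fell, and *ins-29* and *ins-30* did not pass the test, with log2 fold changes of -0.84 and 0.55. *ins-28* had 0.892, 1.03 and 0.680 CPM in *atfs-1(null)*, against 0.304, 0.374 and 0.207 CPM in N2, with no overlap (log2 fold change 1.55). *ins-24* had 1.25, 1.01 and 0.857 CPM, against 0.456, 0.785 and 0.241 CPM in N2, again with no overlap (log2 fold change 1.08). *ins-26* had 1.07, 1.55 and 0.621 CPM, against 0.638, 0.486 and 0.448 CPM in N2, and its lowest mutant library fell below the highest N2 library (log2 fold change 1.03). Adjusted p in edgeR was 0.0045 for *ins-28*, 0.049 for *ins-24* and 0.045 for *ins-26*. *ins-28* and *ins-24* reached the filter only through the mutant libraries, so their values are given as a description.

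*ins-27*, the most transcribed member of N2 in experiment 1, had 8.18, 6.76 and 3.87 CPM in *atfs-1(null)*, against 14.6, 13.6 and 13.6 CPM in N2. Every mutant library was below every N2 library, and replicate 3 was the lowest. The log2 fold change was -1.16 ± 0.28 (SE), with an adjusted p of 0.0083 in edgeR. It lies between *ins-25* and *ins-24*, so that a gene that fell is next to a gene that rose.

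*ins-35* had the largest fall of the family. It lies on chromosome V (20375540 to 20376299). Its levels were 1.69, 2.13 and 1.33 CPM in *atfs-1(null)*, against 7.11, 7.67 and 8.85 CPM in N2. The groups were far apart, and the log2 fold change was -2.19 ± 0.24 (SE), with an adjusted p of 3.8e-04 in edgeR. Of 11 intestine markers tested, 9 fell and none rose in *atfs-1(null)*, and their summed level was 4991 to 6167 CPM, against 13199 to 15922 CPM in N2. The part of the intestine markers in the fall of *ins-35* was not tested. In whole worms, a smaller share of intestine RNA and less *ins-35* RNA per cell cannot be told apart.

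Of the antagonists, *ins-18* and *ins-17* fell and *ins-1* did not pass the test. *ins-18*, an antagonist of DAF-2 signalling expressed in neurons and intestine, had 1.84, 1.55 and 1.89 CPM in *atfs-1(null)*, against 2.89, 2.58 and 3.20 CPM in N2. *ins-17* had 7.85, 6.90 and 7.12 CPM, against 11.4, 9.35 and 11.4 CPM in N2. Neither gene overlapped between the groups. They had log2 fold changes of -0.71 ± 0.21 (SE) for *ins-18* and -0.56 ± 0.17 (SE) for *ins-17*, with adjusted p of 0.018 and 0.022 in edgeR. *ins-1*, the other well known antagonist, had 2.56, 2.18 and 1.15 CPM, against 1.64, 1.46 and 1.34 CPM in N2. Its groups overlapped because of replicate 3, and it did not pass the test (log2 fold change 0.41, adjusted p of 0.29 in edgeR). *ins-33*, which has a known part in germline proliferation together with *ins-3*, had 1.93, 1.64 and 1.09 CPM, against 2.28, 3.74 and 2.62 CPM in N2. It was lower in every mutant library, with a log2 fold change of -0.88 ± 0.30 (SE) and an adjusted p of 0.034 in edgeR.

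The agonists of the sensory neurons did not pass the test in *atfs-1(null)*. *daf-28* had 3.42, 3.48 and 3.103 CPM, against 1.88, 3.52 and 2.45 CPM in N2, with overlap (log2 fold change 0.35, 95% interval -0.27 to 0.98). *ins-6*, which acts with *daf-28* in dauer entry and exit, had 1.22, 1.24 and 1.15 CPM, against 1.00, 0.823 and 0.586 CPM in N2. All mutant libraries of *ins-6* were above N2, but the change missed the threshold (log2 fold change 0.57, adjusted p of 0.085 in edgeR). *ins-4*, another agonist of this group, had 1.22, 1.09 and 0.975 CPM, against 0.456, 1.20 and 0.758 CPM in N2, with overlap (log2 fold change 0.46, 95% interval -0.39 to 1.31). Of 12 amphid sensory neuron markers, 2 fell and none rose, and of 15 neuron markers in general, 13 fell and none rose.

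The remaining tested members gave log2 fold changes of 0.67 for *ins-9*, 0.23 for *ins-22*, 0.04 for *ins-12*, -0.25 for *ins-11* and -0.67 for *ins-5* in *atfs-1(null)*, none past the test. *ins-5* was lower in every mutant library and had an adjusted p of 0.053 in edgeR. With no overlap between the groups, 7 members lay above and 6 below N2, together 13 of 23. Over all genes tested, 74.2% had no overlap, 34.5% wholly above and 39.7% wholly below.

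**Figure D2:**
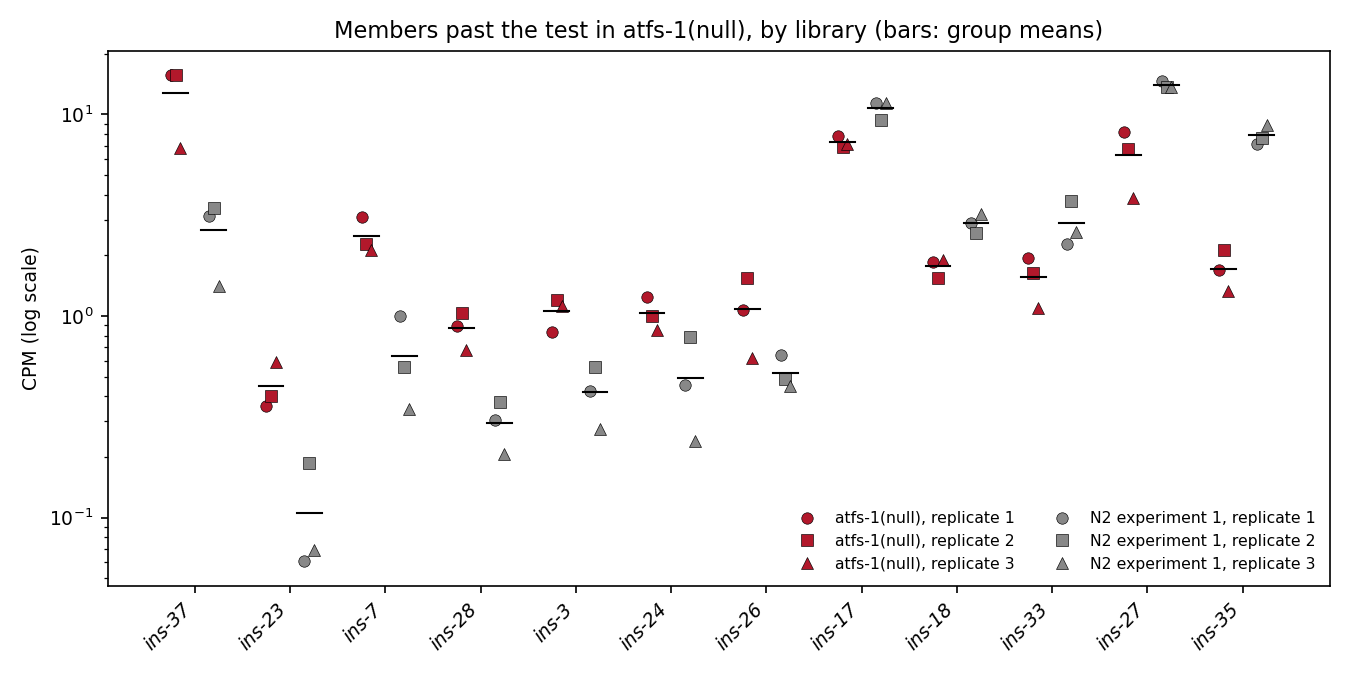
CPM on a log scale of the 12 members past the test in *atfs-1(null)*, in the 3 *atfs-1(null)* libraries (red, left) and the 3 N2 libraries of experiment 1 (grey, right), with group means as bars. *ins-26* is the only one of the 12 whose groups overlap.

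Calls in *atfs-1(null)* depended on scaling and on single libraries. Scaling by library size alone moved the median of all genes to a log2 fold change of 0.21 and gave 8 members higher and 2 lower, as *ins-17*, *ins-18* and *ins-33* missed the threshold and *ins-6* passed. *ins-3*, *ins-7*, *ins-23*, *ins-27*, *ins-28*, *ins-35* and *ins-37* passed whichever of the 6 libraries was left out, and these were the 7 calls that remained without *atfs-1(null)* replicate 2, where 9098 of all genes passed, against 10664 with all libraries. Without *atfs-1(null)* replicate 3, the library that stood apart, 12 members passed, 8 higher and 4 lower, 11 of them shared with the full set.

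Markers of other cells moved widely in these libraries, beside all calls above. In *atfs-1(null)*, all 12 germline markers and all 12 oocyte and adult markers rose, 7 of 12 sperm markers rose, 8 of 11 hypodermis and seam markers fell and 9 of 12 body wall muscle markers fell. Of all genes tested, 32.9% rose and 35.4% fell. The summed germline markers lay between 2087 and 3362 CPM, against 464 to 893 CPM in N2. The part of these cell types and of developmental stage in the changes of the family was not tested.

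In *atfs-1(et18)* larvae the changes went mainly downward. *ins-33*, *ins-29*, *ins-5* and *ins-12* fell, by 2.17-fold to 3.56-fold, and no member rose. These are 4 of 21 tested members, 19.05%, against 16.9% of all 15639 genes tested, 7.51% lower and 9.42% higher. At an unadjusted p under 0.05, 9 members were lower and none higher, beside 5354 of 15639 genes in either direction. DESeq2 called 5, all lower, beside 3769 genes in either direction. Of the 21 members, 17 had a fold change below 0, and the median over them was -0.70 on the log2 scale, with 0.07 over the genes tested. In 10 members every mutant library lay below every N2 library and in none above it, against 19.6% and 22.9% of all genes tested, together 42.5%. *ins-5*, *ins-7*, *ins-9*, *ins-26* and *ins-29* reached the filter only through the N2 libraries, and *ins-28* only through the mutant libraries. These counts are therefore given as a description of the tested members.

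*ins-33* had the largest fall, and was the only member past the test in both strains, lower in both. It had 1.02, 2.16 and 1.15 CPM in *atfs-1(et18)*, against 6.29, 4.37 and 4.79 CPM in N2. Replicate 2 was the highest mutant library and still lay below N2. Its log2 fold change was -1.83 ± 0.34 (SE), with an adjusted p of 0.017 in edgeR.

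*ins-29* had 0.255, 0.327 and 0.408 CPM in *atfs-1(et18)*, against 1.16, 0.656 and 1.10 CPM in N2, with no overlap. Its log2 fold change was -1.54 ± 0.33 (SE), with an adjusted p of 0.026 in edgeR. *ins-5* had 0.298, 0.572 and 0.743 CPM, against 1.44, 1.13 and 1.46 CPM in N2, again with no overlap. Its log2 fold change was -1.31 ± 0.34 (SE), with an adjusted p of 0.046 in edgeR. Both *ins-29* and *ins-5* reached the filter only through the N2 libraries, so their values are given as a description. *ins-12* had 1.06, 0.817 and 0.965 CPM, against 2.24, 2.55 and 1.40 CPM in N2, with all mutant libraries lower. Its log2 fold change was -1.12 ± 0.29 (SE), with an adjusted p of 0.045 in edgeR.

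These calls were not stable. With the replicate number as a block, which the correlations of same-numbered libraries allow in experiment 2, 2 members passed, namely *ins-33* and *ins-29*, while *ins-5* and *ins-12* had adjusted p of 0.0502 and 0.056 in edgeR. The 4 calls became 0 without N2 replicate 1, 2 without N2 replicate 2, 1 without N2 replicate 3, 1 without *atfs-1(et18)* replicate 1 and 0 without *atfs-1(et18)* replicate 3. Calls over all genes moved too, to between 833 and 1733 in these 5 fits, against 2648 with all libraries. Without *atfs-1(et18)* replicate 2, the library that stood apart, 9 passed, 8 lower and 1 higher, beside 4524 genes in all. Those 8 were *ins-5*, *ins-6*, *ins-7*, *ins-9*, *ins-26*, *ins-29*, *ins-30* and *ins-33*, and the member that was higher was *ins-35*. With all libraries, *ins-5*, *ins-7*, *ins-9*, *ins-26* and *ins-29* reached the filter only through N2, so this count is given as a description. With both replicate 2 libraries left out together, an alternative chosen after seeing the data, 11 passed, 10 lower and 1 higher, beside 5162 genes in all.

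*ins-35* and *ins-37*, the members with the largest changes in *atfs-1(null)*, were split by replicate 2 in *atfs-1(et18)*. *ins-35* had 18.5, 5.47 and 23.4 CPM in *atfs-1(et18)*, against 11.4, 5.65 and 11.4 CPM in N2. Replicate 2 was the lowest library of both groups, and the others of *atfs-1(et18)* lay above all of N2. Its log2 fold change of 0.74 ± 0.54 (SE) did not pass the test (adjusted p of 0.38 in edgeR). Summed hypodermis and seam markers were likewise lowest in the replicate 2 libraries, at 433 CPM beside 853 and 838 CPM in *atfs-1(et18)* and 762 CPM beside 1181 and 1084 CPM in N2, and their part in the spread of *ins-35* was not tested. Summed intestine markers were 11227, 8561 and 10669 CPM in *atfs-1(et18)*, against 9292, 9624 and 9271 CPM in N2, so replicate 2 was the lowest *atfs-1(et18)* library but the highest N2 library.

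*ins-37* had 4.51, 16.2 and 5.46 CPM in *atfs-1(et18)*, against 4.79, 8.42 and 6.32 CPM in N2. Replicate 2 was the highest library of both groups, and the groups overlapped. The log2 fold change of 0.42 did not pass the test (adjusted p of 0.60 in edgeR), and it was -0.38 without *atfs-1(et18)* replicate 2. The sperm markers summed to 136, 413 and 178 CPM in the same mutant libraries and 148, 225 and 228 CPM in N2. Per 1000 CPM of those markers, *ins-37* averaged 34.4 ± 4.404 CPM in *atfs-1(et18)* and 32.5 ± 4.79 CPM in N2 (SD, n = 3 each).

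*ins-7* had 0.170, 0.899 and 0.186 CPM in *atfs-1(et18)*, against 1.05, 1.02 and 1.20 CPM in N2. All mutant libraries were lower, but replicate 2 with 22 counts was close to N2 while the other two held 4 and 5 counts. The log2 fold change was -1.38 ± 0.59 (SE) and did not pass the test (adjusted p of 0.16 in edgeR). Without replicate 2 of *atfs-1(et18)* it was -2.62, with an adjusted p of 0.0029 in edgeR. In this experiment *ins-7* reached the filter only through the N2 libraries, so these values are given as a description.

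The other agonists and antagonists of the dauer decision had lower means in *atfs-1(et18)*, except *ins-17*, and none passed the test. *daf-28* had 1.96, 3.47 and 3.08 CPM, against 5.18, 3.57 and 4.06 CPM in N2, with no overlap (log2 fold change -0.59, 95% interval -1.25 to 0.07). *ins-6* had 0.426, 1.59 and 0.854 CPM, against 1.88, 1.68 and 1.63 CPM in N2, also with no overlap (log2 fold change -0.85). *ins-4* had 0.937, 1.43 and 1.11 CPM, against 3.30, 1.28 and 2.16 CPM in N2, with overlap (log2 fold change -0.96). The antagonist *ins-1* lay below N2 in all libraries, with 1.53, 1.80 and 1.30 CPM, against 2.35, 2.04 and 2.26 CPM in N2 (log2 fold change -0.53). *ins-18* had 3.62, 1.96 and 2.86 CPM, against 4.10, 3.39 and 3.86 CPM in N2, with overlap (log2 fold change -0.43). *ins-17* was close to N2, with 11.03, 10.9 and 10.6 CPM, against 11.3, 11.3 and 8.94 CPM (log2 fold change 0.05, 95% interval -0.32 to 0.41).

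In the chromosome I cluster, *ins-27* had 7.49, 4.25 and 8.13 CPM in *atfs-1(et18)*, against 10.8, 9.66 and 11.1 CPM in N2. No libraries overlapped, yet the log2 fold change of -0.67 did not pass the test (adjusted p of 0.13 in edgeR). *ins-30* had 1.83, 2.94 and 1.45 CPM, against 4.76, 2.92 and 4.39 CPM in N2, with replicate 2 of both groups nearly equal (log2 fold change -0.96). *ins-24* had 0.511, 0.653 and 0.371 CPM, against 1.25, 0.656 and 0.565 CPM in N2 (log2 fold change -0.70). *ins-26* had 0.511, 1.35 and 0.334 CPM, against 1.72, 0.984 and 0.997 CPM in N2 (log2 fold change -0.77). *ins-28* had 0.383, 0.817 and 0.594 CPM, against 0.803, 0.364 and 0.465 CPM in N2 (log2 fold change 0.12). The last 3 overlapped between the groups, and replicate 2 was the highest *atfs-1(et18)* library in each.

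Outside that cluster, *ins-3* had 0.468, 1.31 and 0.594 CPM in *atfs-1(et18)*, against 0.969, 0.875 and 0.798 CPM in N2 (log2 fold change -0.16). *ins-9* and *ins-22* had log2 fold changes of -1.47 and -0.28. *ins-23*, below the filter, had 1, 2 and 6 counts, against 6, 6 and 3 in N2, and *ins-11* had 6, 3 and 5 counts, against 41, 15 and 10 in N2. None of the 3 tested members among these passed the test in *atfs-1(et18)*. Markers of other cells moved less than in *atfs-1(null)*. Among 12 body wall muscle markers 7 fell, 2 of 15 neuron markers and 2 of 12 amphid sensory neuron markers fell, and no germline, sperm or oocyte and adult marker passed the test. Of all genes tested, 9.42% rose and 7.51% fell. Median log2 fold changes were 1.42 for the oocyte and adult, 0.35 for the germline and 0.22 for the sperm markers. Summed oocyte and adult markers were 5617, 21613 and 3841 CPM in *atfs-1(et18)*, against 1898, 6948 and 1613 CPM in N2. Their part in the changes of the family was not tested.

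**Figure D3:**
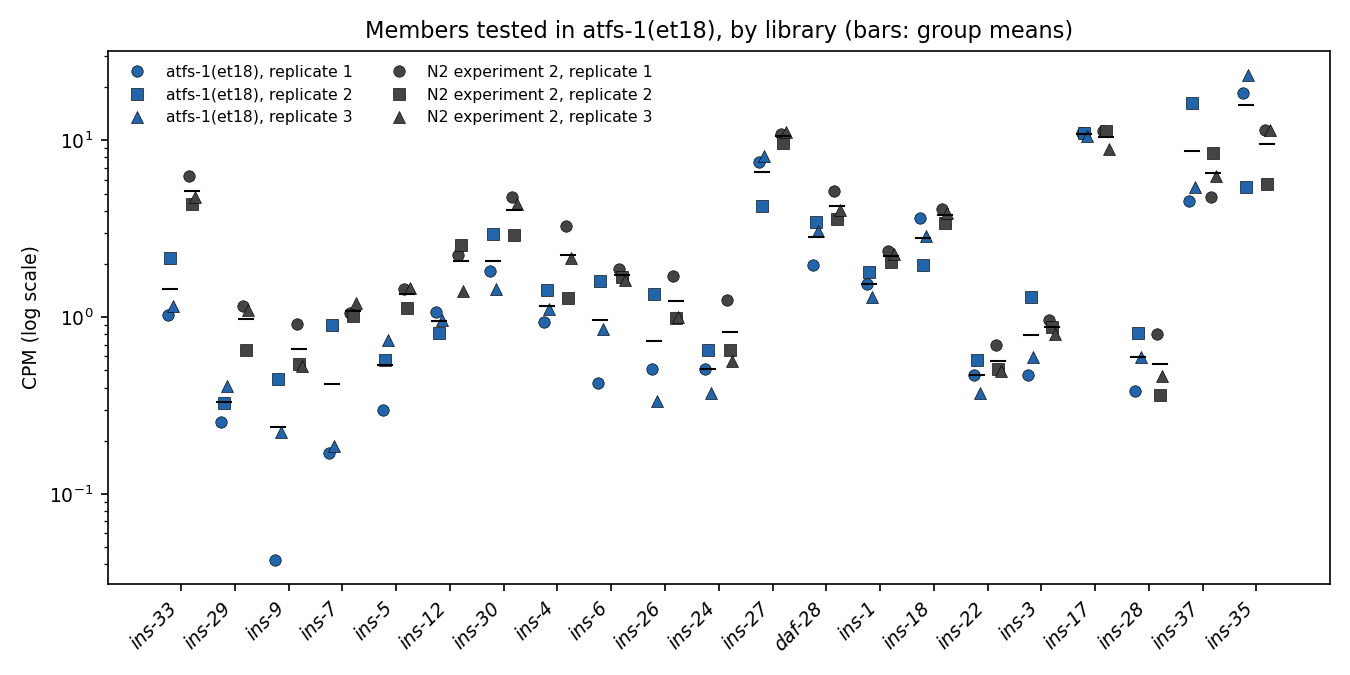
CPM on a log scale of the 21 members tested in *atfs-1(et18)*, in the 3 *atfs-1(et18)* libraries (blue, left) and the 3 N2 libraries of experiment 2 (dark grey, right), ordered by fold change, with group means as bars and replicate number as the marker shape. Replicate 2 of *atfs-1(et18)* (square) stands apart for *ins-7*, *ins-37* and *ins-35*, at 0.899, 16.2 and 5.47 CPM.

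The size of the change differed between the strains for many members, although none passed the test in opposite directions in the 2 strains. The change in *atfs-1(et18)* minus the change in *atfs-1(null)* was tested in 1 edgeR fit of all 12 libraries, where strain and experiment cannot be told apart. Of 23 tested members, 13 differed at an adjusted p of 0.05, 56.5% against 49.0% of all 16188 genes tested. The difference was below 0 for 12 of them, 52.2% against 22.9% of all genes, and above 0 for *ins-35* alone, against 26.1% of all genes. Of these 12, *ins-3*, *ins-7*, *ins-23*, *ins-24* and *ins-28* reached the filter of experiment 1 only through the mutant libraries. *ins-7* and *ins-26* reached that of experiment 2 only through N2, and *ins-28* only through *atfs-1(et18)*. The share below 0 is therefore given as a description of the tested members. Over the 21 members tested in both strains, 12 were above 0 in *atfs-1(null)* and below 0 in *atfs-1(et18)*, 2 were the reverse, 5 were below 0 in both and 2, *ins-28* and *ins-37*, above 0 in both. All of these members but 1, *ins-33*, missed the test in at least 1 strain.

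*ins-7* gave the largest difference, -3.37 ± 0.73 on the log2 scale (SE, adjusted p of 0.0037 in edgeR), with all libraries above N2 in *atfs-1(null)* and all below N2 in *atfs-1(et18)*. In each experiment it reached the filter only through the group where it was higher, so this difference is given as a description. *ins-35* gave 2.90 ± 0.64 (SE, adjusted p of 0.0042 in edgeR), with all libraries below N2 in *atfs-1(null)*. These 2 were the members that passed whichever of the 12 libraries was left out. The count of 13 was 3 without N2 replicate 3 of experiment 1, without N2 replicate 1 of experiment 2 or without *atfs-1(et18)* replicate 1. It was 4 without N2 replicate 1 of experiment 1, *atfs-1(null)* replicate 1 or *atfs-1(et18)* replicate 3, 5 without *atfs-1(null)* replicate 2, and 6 without N2 replicate 2 or N2 replicate 3 of experiment 2. Over the 12 such fits, the count of members ranged from 3 to 16. Calls among all genes ranged from 5725 to 9742 in these fits, against 7925 with all libraries. The other 11 members that differed were *ins-1*, *ins-3*, *ins-4*, *ins-6*, *ins-12*, *ins-23*, *ins-24*, *ins-26*, *ins-28*, *ins-30* and *ins-37*, with differences of -0.96 to -2.56 on the log2 scale.

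**Figure D4:**
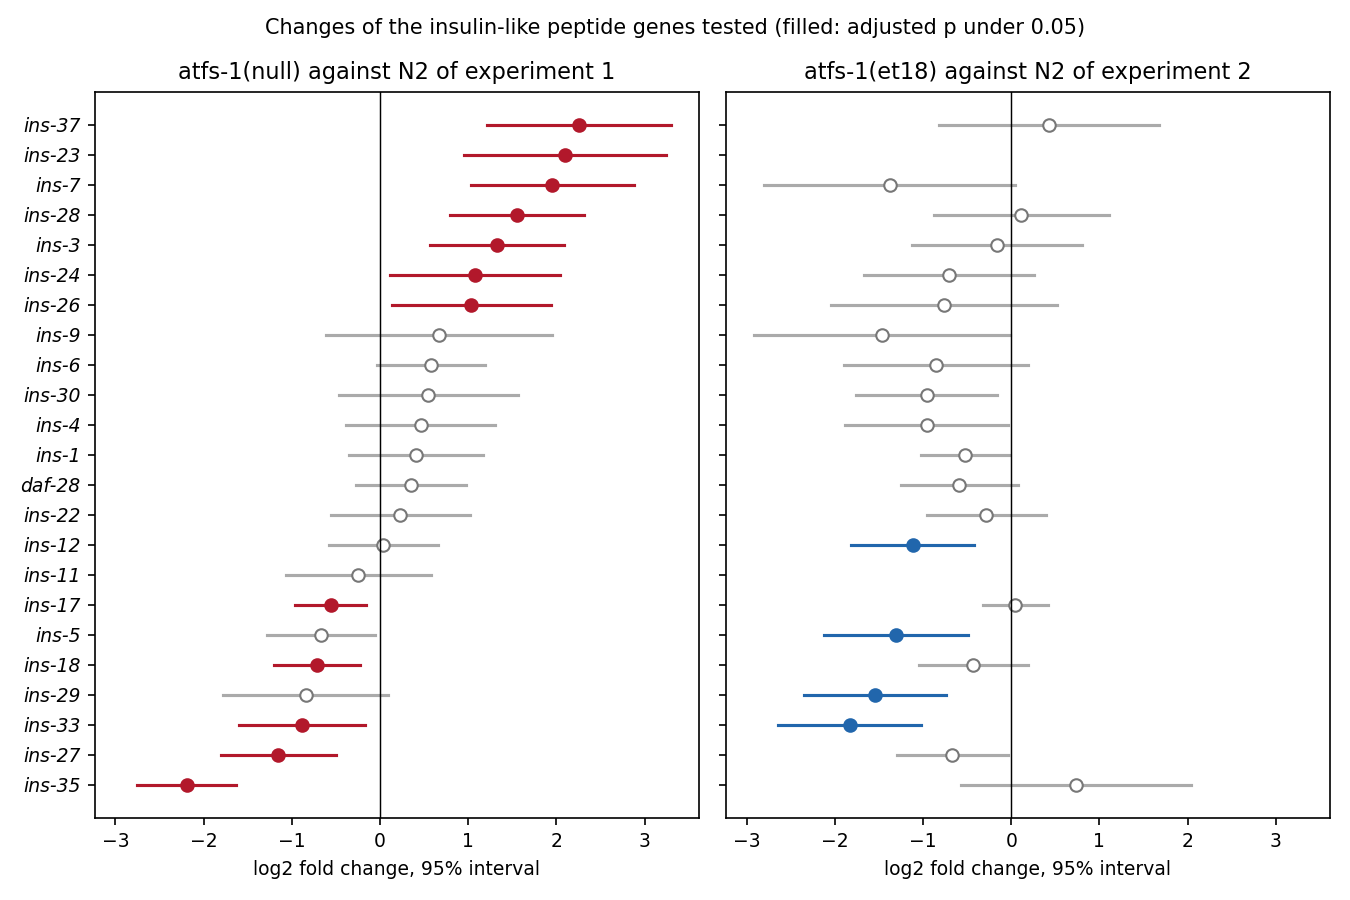
Log2 fold changes with 95% intervals of the members tested in *atfs-1(null)* (left panel) and *atfs-1(et18)* (right panel), each against N2 of its own experiment, ordered by the change in *atfs-1(null)*, with filled points for an adjusted p under 0.05. Filled points lie on both sides of 0 in the left panel (7 higher, 5 lower) and only below 0 in the right panel (4 lower).

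The summed level of the 39 members hid most of these changes. It was 54.03 ± 11.8 CPM in *atfs-1(null)* and 56.2 ± 2.59 CPM in N2 of experiment 1 (SD, n = 3 each), with overlap. It was 61.7 ± 3.94 CPM in *atfs-1(et18)* and 72.9 ± 7.52 CPM in N2 of experiment 2, where the highest *atfs-1(et18)* library (65.91 CPM) was just below the lowest N2 library (65.96 CPM). *ins-35* made up 3.20% ± 0.47 of the family in *atfs-1(null)* and 14.1% ± 2.18 in N2, *ins-37* made up 22.8% ± 5.26 and 4.69% ± 1.78, and *ins-27* 11.4% ± 1.76 and 24.9% ± 1.43 (SD, n = 3 each). In *atfs-1(et18)*, *ins-35* made up 31.9%, 8.93% and 35.5% of the family, against 14.1%, 8.56% and 15.8% in N2. Without *ins-35* and *ins-37*, the family summed to 37.2 ± 2.27 CPM in *atfs-1(et18)* and 57.0 ± 6.83 CPM in N2 (SD, n = 3 each), with no overlap. The same sum was 39.6 ± 6.54 CPM in *atfs-1(null)* and 45.6 ± 2.23 CPM in N2, with overlap. These members were set aside after their values were seen.

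**Figure D5:**
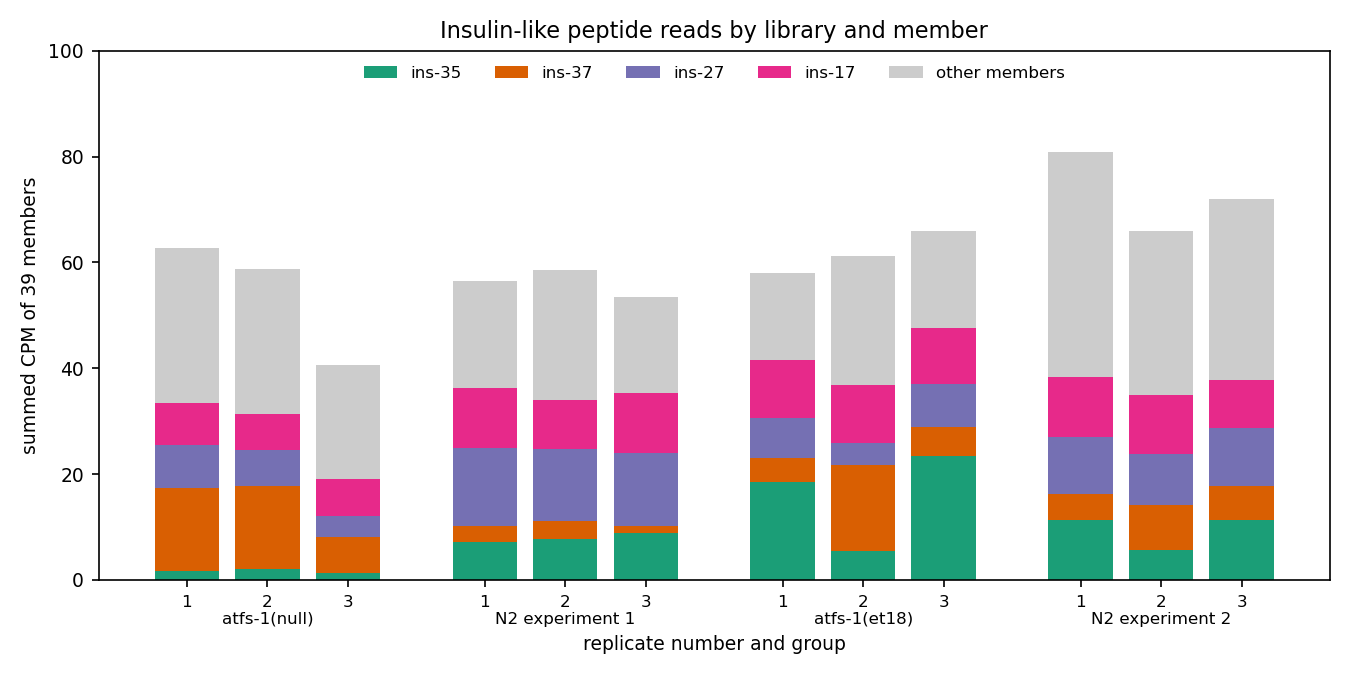
Summed CPM of the 39 members in each of the 12 libraries, stacked by member, with each mutant left of its own N2. *ins-37* takes 22.8% of the family on average in *atfs-1(null)* and 4.69% in N2 of experiment 1, at similar totals of 54.03 and 56.2 CPM.

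Genes that make, release and receive these peptides moved as follows, beside 32.9% of all genes tested that rose and 35.4% that fell in *atfs-1(null)*. In *atfs-1(et18)* these shares were 9.42% and 7.51%. Of 11 tested genes for propeptide processing and dense core vesicle release, 8 fell and none rose in *atfs-1(null)*, with a median log2 fold change of -0.59 and *aex-5*, a proprotein convertase gene, lowest at -1.52. Neuron markers, which share *egl-21* with this list, had a median of -0.75 and intestine markers one of -1.22 in the same libraries, and their part in this fall was not tested. In *atfs-1(et18)* 1 rose and 1 fell, *unc-31*, which primes dense core vesicles for release, at -0.60. From the receptor to FOXO, 4 of 13 genes rose and 5 fell in *atfs-1(null)*, while 3 rose and none fell in *atfs-1(et18)*. *daf-2* did not pass the test in either strain (log2 fold changes of 0.25 in the null and 0.22 in the et18 strain), and *daf-16* fell by 0.44 in *atfs-1(null)* and had a rise of 0.63 in *atfs-1(et18)* on the log2 scale.

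Of 10 known FOXO target genes, 5 rose and 2 fell in *atfs-1(null)*, and 5 rose and none fell in *atfs-1(et18)*. The 5 that rose were only partly the same genes in the 2 strains. Of all genes tested, 32.9% rose and 35.4% fell in *atfs-1(null)*, and 9.42% rose and 7.51% fell in *atfs-1(et18)*. *sip-1*, a small heat shock protein gene, had the largest change in both, 5.02 and 3.20 on the log2 scale. Oocyte and adult markers had median log2 fold changes of 3.99 and 1.42 in the same libraries, and their part in the rise of *sip-1* was not tested. Of 10 genes of other hormone pathways of the dauer decision, 1 rose and 6 fell in *atfs-1(null)*, and none rose and 2 fell in *atfs-1(et18)*. *daf-7*, a TGF-beta ligand of sensory neurons, was the one that rose in *atfs-1(null)*, at 0.84, and fell in *atfs-1(et18)*, at -1.47 on the log2 scale. *daf-9*, a cytochrome P450 of dafachronic acid synthesis, fell by 2.10 on the log2 scale in *atfs-1(null)*.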

How the data were processed

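RNA from L4 worms was sequenced as single reads of 50 bases. The authors aligned reads to WBcel235 and deposited raw counts per gene, with no normalization, and the exon length of each gene. The submitters' processing notes name STAR 2.5.3a, Subread 1.5.2, featureCounts and edgeR 3.10.0. Annotation release, strand use and multi-mapping reads are not given in the sources used here, so reads shared by related members could be lost or split. Total counts were 24090660 to 37050803 per library.

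Tests of the counts used edgeR 4.0.16 under R 4.3.3 (TMM, default filter, quasi-likelihood test, Benjamini-Hochberg adjustment over all genes tested, threshold 0.05). Each mutant was compared with N2 of its own experiment, and the difference between strains was fitted over all 12 libraries. CPM and RPKM were computed from the counts, TMM factors and exon lengths. Fits were tested on simulated data. Alternatives were DESeq2 1.42.0, library size scaling, other filters, robust estimation, 1 fit of all libraries, a replicate block and leaving out each library.

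The replicate numbers come from the labels. Same-numbered libraries had correlated deviations of -0.02, 0.52 and 0.32 in experiment 1 and 0.62, 0.50 and 0.10 in experiment 2, so the number was read as a pairing in experiment 2 only. Differently numbered libraries reached 0.24 in experiment 1 and 0.42 in experiment 2, so this reading is uncertain. Values per gene are from the fits without the block unless the block is named. No replicates agreed within sampling noise.

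Members and lists were chosen with earlier results of these data known. Values per library are given for members past a test and for *daf-28*, *ins-1*, *ins-4*, *ins-6*, *ins-7* and *ins-18*, and for some further members beside them. Of other lists, *daf-2*, *daf-16*, *daf-7* and the called gene with the largest change in each may be named. One such gene is not reported here. Sequences were not used here.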

Additional observations from a re-analysis of the deposited data

Results flagged for a closer look

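The change in *atfs-1(et18)* differed from the change in *atfs-1(null)* for 13 members by the edgeR test of the difference itself. On the log2 scale, *atfs-1(et18)* minus *atfs-1(null)*, the differences were -3.37 for *ins-7*, -2.56 for *ins-23*, -1.86 for *ins-37*, -1.84 for *ins-26*, -1.82 for *ins-24*, -1.54 for *ins-30*, -1.53 for *ins-3*, -1.48 for *ins-28*, -1.47 for *ins-6*, -1.46 for *ins-4*, -1.19 for *ins-12*, -0.96 for *ins-1* and 2.90 for *ins-35*. Strain and experiment cannot be told apart in these values, and leaving out any 1 of the 12 libraries left between 3 and 16 members past the threshold. *ins-3*, *ins-7*, *ins-23*, *ins-24*, *ins-26* and *ins-28* reached a filter only through a single group, so their values are given as a description.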

How the results depend on the processing

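In *atfs-1(null)*, the 12 calls were 7 where genes needed at least 1 CPM in 3 libraries, and 7 to 12 with 1 library left out. The filter tests fewer members (13). In *atfs-1(et18)*, the 4 calls were 2 with no filter on low counts, 0 to 9 with 1 library left out, and 11 with both replicate 2 libraries left out. The cause was not tested. The 13 differences between strains were 3 to 16 with 1 library left out. With the replicate block, the null strain had 12 calls, the et18 strain 2 and the difference 13, 11 of these shared with the fit without the block. DESeq2 gave 12, 5 and 15 calls and library size scaling 10, 3 and 16.

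Some small log2 fold changes turned sign when 1 library was left out, and their ranges were -0.14 to 0.19 for *ins-12* in the null strain. In *atfs-1(et18)* they were -0.72 to 0.079 for *ins-3*, -0.056 to 0.10 for *ins-17*, -0.17 to 0.52 for *ins-28* and -0.38 to 0.72 for *ins-37*. With both replicate 2 libraries left out, *ins-28* was at -0.38 and *ins-37* at -0.15.

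Depth limits the 16 members below the filter. Without it, *ins-34* and *ins-16* passed in *atfs-1(null)* (adjusted p of 0.0033 and 0.027 in edgeR), on 9, 16 and 31 counts against 4, 1 and 2 in N2, and on 4, 7 and 1 counts against 0, 0 and 0 in N2.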
